A study of Sus scrofa with 23 samples.

Results

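The general transcription machinery was read here as the genes whose symbols begin with POLR1, POLR2 or POLR3 (RNA polymerase subunits), GTF2 or GTF3 (general transcription factors), TAF with a number (TBP-associated factors), TBP, or MED with a number (Mediator), together with DRAP1. The rule used symbols alone, but it was chosen with earlier results of these data known. DRAP1, the gene added by its full name, is one that the paper names as upregulated in oocytes matured in vitro. It found 79 of the 8603 genes of the expression table, of which 7371 carried a symbol. The symbol list of the organism holds 101 genes that match, and the other 22, among them POLR1A, TAF5, TAF6, TAF10 and GTF2E1, were not analysed here. The same holds for TBP itself, POLR2J and POLR2L. By its name the table holds genes that the authors called differentially expressed, so a member of the table had already been picked for a difference somewhere in the study, and every share below is a share of that table.

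Protein-coding genes are transcribed by RNA polymerase II, ribosomal RNA by polymerase I, and transfer RNA and other small RNAs by polymerase III, and a few small subunits are shared by all of them. At a polymerase II promoter TFIID, made of TBP and its TAFs, binds first, TFIIA and TFIIB join it, TFIIF brings the polymerase, and TFIIE and TFIIH open the DNA. Mediator carries signals from activators to the polymerase, and its kinase module can hold the polymerase off. Oocytes and early embryos are known to live on stored transcripts until the embryonic genome is switched on, in the pig at about the 4-cell stage, and germ cells carry their own versions of some of these factors, such as TBPL2 for TBP and GTF2A1L for GTF2A1.

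Polyadenylated RNA was measured in 23 libraries, 1 for each group and stage, each from a pool of oocytes, embryos or embryo parts. IV-D were Duroc embryos conceived in vivo by artificial insemination with 1 Duroc boar and flushed from sows, with oocytes of Duroc sows aged 2 years that had matured in the animal. NT-D and NT-LW were clones, made with ear fibroblasts of that same Duroc boar and of 1 Laiwu boar, each 1 year old, put into oocytes of hybrid sows that had matured in vitro, and grown in PZM3 medium at low oxygen. Each clone group thus came from 1 donor cell line and was male, whereas the sex of IV-D embryos was mixed. The stages were the mature oocyte (OC), the 1-cell (1C), 2-cell (2C), 4-cell (4C) and 8-cell (8C) embryo, the morula (MO), and from the blastocyst a part with inner cell mass and trophectoderm (IT) and trophectoderm alone (TE). The NT-D group had all 8 stages, with the recipient oocytes of hybrid sows as its OC although they carry the Duroc label, and NT-LW had 7, without OC. Way of conception, oocyte source and maturation, culture and sex changed together between IV-D and the clones, for NT-LW also the breed of the donor, and cannot be told apart, and NT-D and NT-LW were both compared with the same IV-D libraries.

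Values are FPKM, fragment numbers scaled for transcript length and library depth, so levels of different genes can be set side by side. Whole fragment numbers could be recovered from them for all 8603 genes, at depths of 14952784 to 22991067 fragments a library. Of the 1817 values of members 1575 rested on at least 100 fragments, 12 on at most 3 and 4 on 0, and 3 fragments on 1 kb of transcript stood for an FPKM of 0.130 to 0.201. With 1 library for each condition no difference has a replicate check, so no p-value is given. The intervals below are exact 95% counting intervals and cover counting error only. Higher or lower means a difference of over 1 in log2(FPKM + 1) between 2 libraries, with an FPKM of 1 or more in the higher. Summed FPKM of 8 oocyte marker genes was 1168 to 4488 in all 11 libraries up to 4C and 1.08 to 265 from 8C on, with the highest late values in NT-LW 8C (265), NT-D MO (239) and NT-D 8C (205), against 25.4 in IV-D 8C and 9.25 in IV-D MO. KRT8 and KRT18, keratins of trophectoderm, were 441 to 1033 and 532 to 1593 in all 6 blastocyst libraries. NANOG, a marker of inner cell mass, was 3.76 to 9.80 in the 3 IT libraries and 0 in the 3 TE libraries. Over the 3 inner cell mass markers of the table the summed FPKM was 32.3 in IT and 2.05 in TE of IV-D. In the clones the sums of both parts lay close, 17.2 and 15.15 in NT-D and 12.9 and 12.4 in NT-LW. GDF3, another of these markers, was higher in TE than in IT in both clone groups, and KLF17 in NT-LW.

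RefSeq placed 76 of the 79 members once on the Sscrofa11.1 build, and the 250 bases before the annotated start of each of these were read from that build. The 5 printed here are a choice made by hand. They belong to MED10 and POLR2B, which were far higher at 4C than at 2C in every group, GTF2A1, the general form of the large TFIIA subunit, and the TBP relatives TBPL1 and TBPL2, of which TBPL2 stood lower at 8C than at 4C in every group. The printed windows run 5′ to 3′ on the strand of the gene. Capitals mark matches, on either strand, to 6 short motifs of which none contains another. The core of the SP1 box was searched as GGGCGG. For ETS factors the letters searched were CCGGAAG. The NF-Y box was taken as the letters CCAAT. For the promoter box of TBP the search used TATAAA. The E box was searched for by the letters CACGTG, and NRF1 is given by name. MED10 lies at chr16:75516742-75516991, plus strand, POLR2B at chr8:56232480-56232729, plus strand, GTF2A1 at chr7:104009319-104009568, minus strand, TBPL1 at chr1:29936774-29937023, minus strand and TBPL2 at chr1:184772052-184772301, minus strand.
MED10: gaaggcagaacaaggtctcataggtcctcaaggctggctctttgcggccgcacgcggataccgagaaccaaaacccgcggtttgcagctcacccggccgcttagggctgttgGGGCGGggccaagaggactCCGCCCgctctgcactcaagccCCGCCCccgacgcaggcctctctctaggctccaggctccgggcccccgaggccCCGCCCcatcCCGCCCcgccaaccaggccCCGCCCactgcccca
POLR2B: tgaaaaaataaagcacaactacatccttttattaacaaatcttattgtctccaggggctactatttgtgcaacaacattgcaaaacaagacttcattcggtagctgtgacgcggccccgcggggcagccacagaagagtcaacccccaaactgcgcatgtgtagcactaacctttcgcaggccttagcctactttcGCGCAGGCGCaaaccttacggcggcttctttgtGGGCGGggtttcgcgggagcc
GTF2A1: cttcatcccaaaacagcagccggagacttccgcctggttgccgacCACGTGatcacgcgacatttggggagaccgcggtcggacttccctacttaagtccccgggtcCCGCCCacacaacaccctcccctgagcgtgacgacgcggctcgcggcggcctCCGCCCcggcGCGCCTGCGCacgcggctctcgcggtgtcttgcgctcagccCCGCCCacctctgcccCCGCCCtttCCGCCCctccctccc
TBPL1: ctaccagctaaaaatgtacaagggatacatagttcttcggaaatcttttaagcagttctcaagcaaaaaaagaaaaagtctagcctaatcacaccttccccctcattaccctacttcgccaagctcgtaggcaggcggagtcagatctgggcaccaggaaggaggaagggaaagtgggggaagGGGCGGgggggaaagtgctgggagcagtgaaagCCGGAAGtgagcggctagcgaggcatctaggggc
TBPL2: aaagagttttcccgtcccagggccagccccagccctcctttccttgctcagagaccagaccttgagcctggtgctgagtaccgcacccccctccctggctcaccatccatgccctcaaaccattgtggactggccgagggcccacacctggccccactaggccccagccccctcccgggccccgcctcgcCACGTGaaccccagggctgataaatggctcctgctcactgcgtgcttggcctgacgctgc

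The window of MED10 held 6 SP1 cores and 21 CG dinucleotides, and that of POLR2B 1 SP1 core, 1 NRF1 motif and 15 CG. GTF2A1 had 5 SP1 cores, 1 NRF1 motif, 1 E box and 31 CG. TBPL1 had 1 ETS motif, 1 SP1 core and 8 CG, and TBPL2 1 E box and 9 CG, so both TBP relatives started in stretches with fewer CG than the other 3 of this choice. The SP1 core stood in 60.5% of the 76 member windows and in 45.9% of the windows of all 19556 protein-coding genes, the ETS motif in 15.8% and 7.77%, the NRF1 motif in 13.2% and 4.75%, the E box in 14.5% and 6.39%, CCAAT in 34.2% and 31.9%, and TATAAA in 9.21% and 9.77%. The set of all protein-coding genes includes genes outside the table, and windows of the table's genes were not counted. Member windows held a median of 15 CG against 12 over all protein-coding genes. The part of CG content or of being expressed in the motif shares was not tested. A match says that the letters are there and nothing about binding.

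Members of 1 complex differed in direction. On the map of members by library, POLR2B, POLR3F, MED8, MED10 and TFIIH subunits were higher from 4C or 8C on, and TBPL1, TBPL2, GTF2A1L, TAF1A, MED14 and MED17 were lower. Pooled embryos were measured, so fewer cells and less RNA per cell cannot be told apart in any of these values. Of the 79 members 52 had FPKM of at least 1 in every library, against 44.4% of all genes of the table, and each reached 1 in some library. Their median FPKM in IV-D was 7.03 in OC, 4.87 in 2C, 14.3 in 4C, 23.8 in 8C, 19.5 in MO and 9.41 in TE, beside 4.14, 3.37, 6.20, 6.71, 6.68 and 5.29 for the table.

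**Figure D1:**
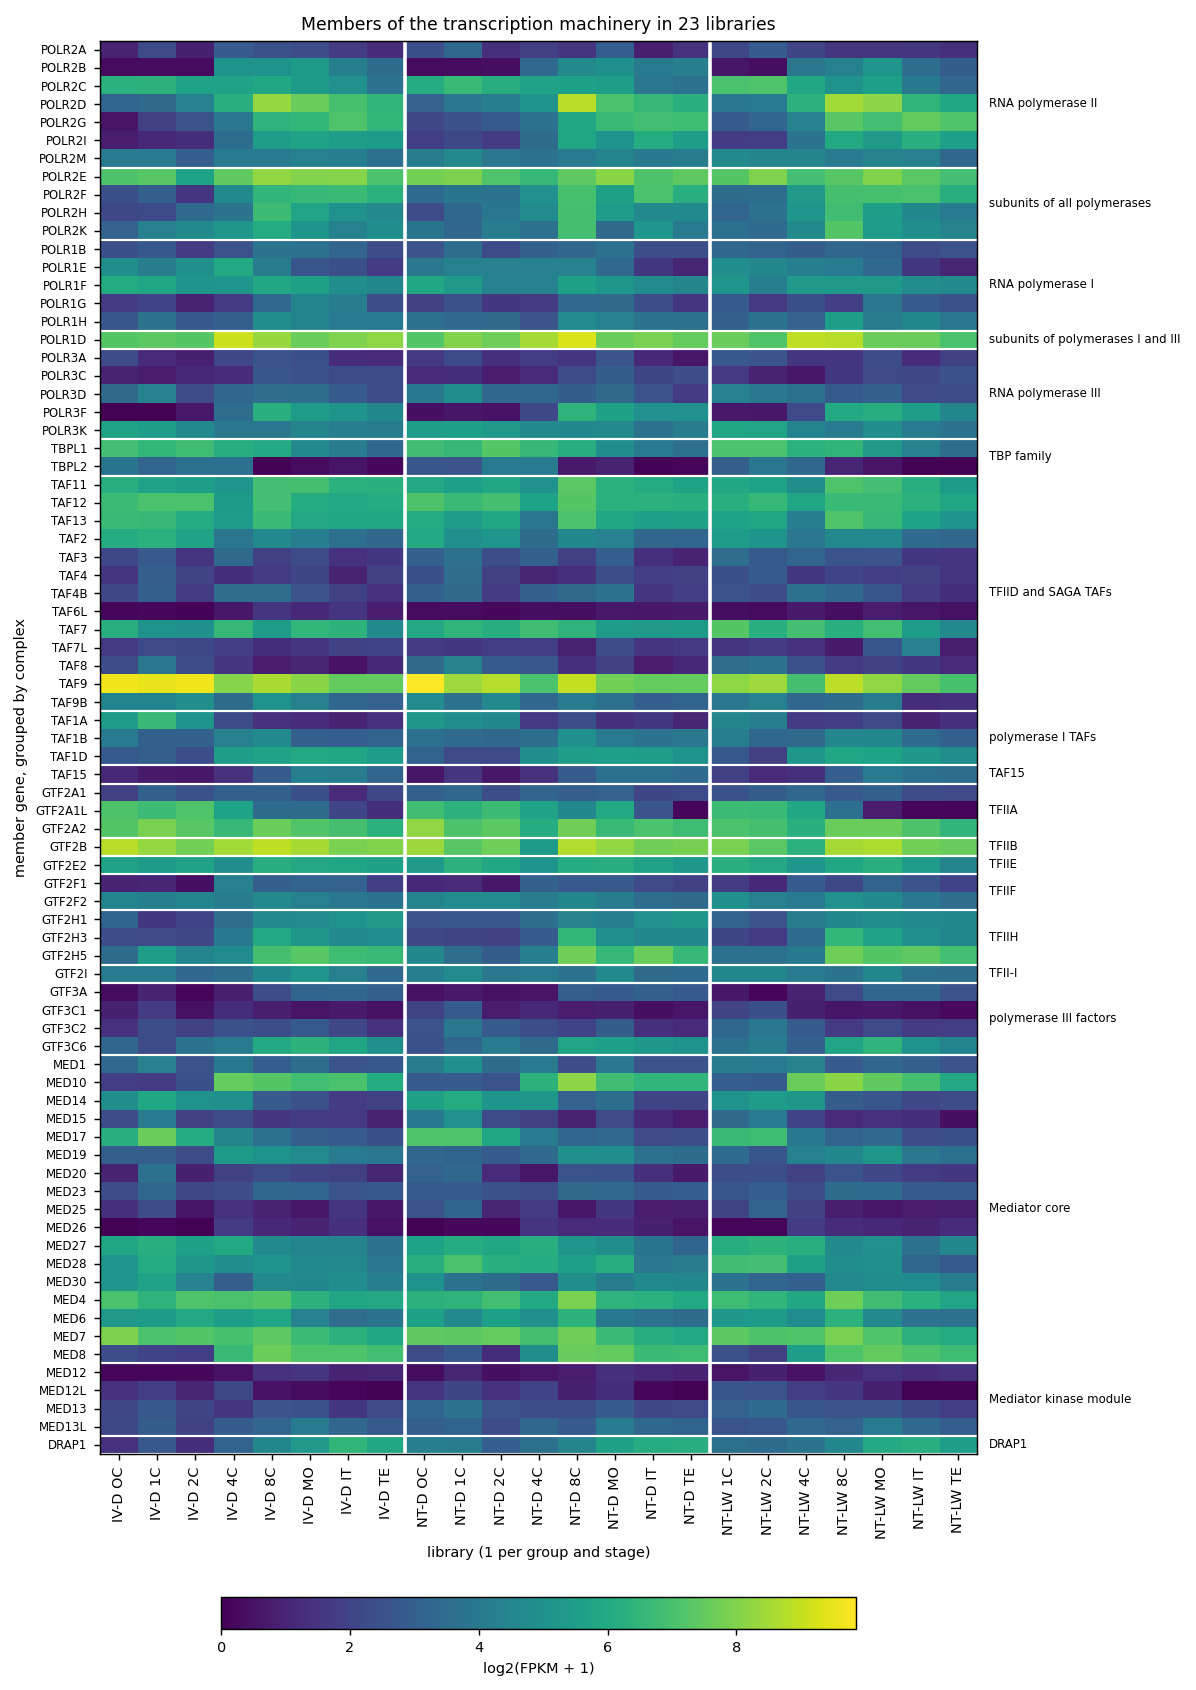
Level of 78 of the 79 members as log2(FPKM + 1), in colour, in each of the 23 libraries (columns, 1 library for each group and stage), with members ordered by complex. POLR2B, POLR3F, MED10 and MED8 are dark up to 2C and bright from 4C or 8C in all 3 groups, and TBPL2 and GTF2A1L change the other way.

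From 2C to 4C in IV-D 29 of 76 tested members were higher and 8 lower, beside 34.4% and 12.3% of the tested genes of the table. Their median log2 difference was 0.56, against 0.46 over the table. In NT-D 12 were higher and 10 lower (17.3% and 8.36% of the table), and in NT-LW 19 and 19 (16.5% and 19.9%). Scaling by the median ratio of genes turned the IV-D count to 18 higher and 21 lower and the NT-D count to 10 and 17. In IV-D the members' shares lay near those of the table. Higher in all 3 groups were 10 members (9.79% of the table), GTF2F1, MED8, MED10, MED26, POLR2B, POLR2F, POLR2I, POLR3F, TAF1D and TAF4B, and lower in all 3 were 5 (3.83%), MED17, TAF1A, TAF2, TAF9 and TAF9B.

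At the next step, 4C to 8C, 27 of 79 tested members were higher in IV-D and 10 lower (35.0% and 28.1% of the table), with a median of 0.42 beside 0.25. NT-D had 35 of 77 higher and 8 lower (31.4% and 28.7%) with a median of 0.77 beside 0.13, and NT-LW 24 of 77 and 7 (28.1% and 25.6%). Fewer members than genes of the table were lower at this step in every group. Under median-ratio scaling the IV-D count became 19 higher and 14 lower and the NT-D count 29 and 12, and rescaling to an equal sum gave 24 and 14 in NT-LW. Higher in all 3 groups were 17 members (18.1% of the table), and lower in all 3 were GTF2A1L, MED1, MED14 and TBPL2 (17.0%).

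**Figure D2:**
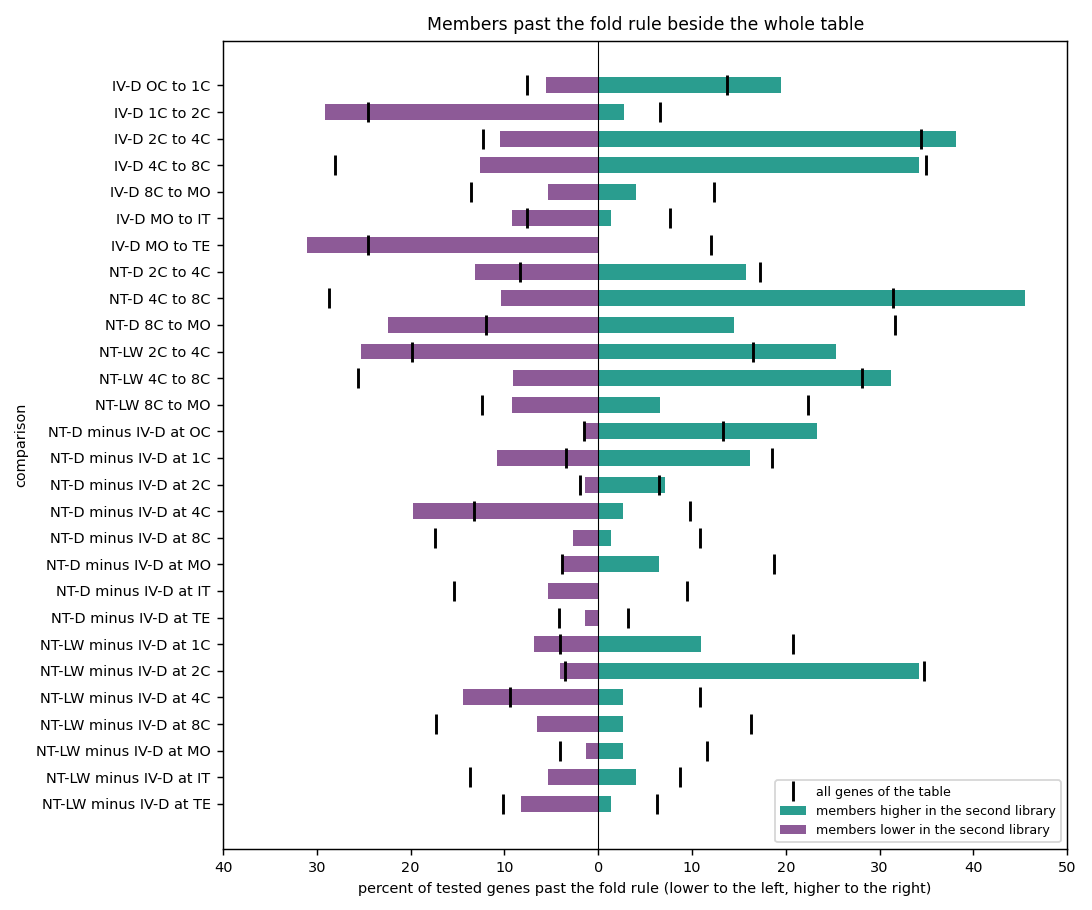
Percent of tested members past the fold rule in 28 comparisons (bars, lower to the left and higher to the right) beside the percent of all tested genes of the table (black ticks). Lower members are fewer than in the table at 4C to 8C, 12.7%, 10.4% and 9.09% against 28.1%, 28.7% and 25.6% in IV-D, NT-D and NT-LW.

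RNA polymerase II subunits differed widely in level in the oocyte and less so at the 4-cell stage. POLR2B (ENSSSCG00000022955, chr8:56232730-56283367) encodes the second largest subunit, which forms the catalytic centre with POLR2A. In IV-D its FPKM was 0.233 in OC, 0.264 in 1C, 0.236 in 2C, 31.7 in 4C, 32.2 in 8C, 40.0 in MO, 17.9 in IT and 10.2 in TE. It was 0.215 in OC, 0.252 in 1C, 0.333 in 2C, 9.42 in 4C, 23.9 in 8C, 30.0 in MO, 15.3 in IT and 17.9 in TE in NT-D, and 0.473 in 1C, 0.283 in 2C, 14.1 in 4C, 19.1 in 8C, 35.0 in MO, 10.8 in IT and 6.56 in TE in NT-LW. The 8 libraries up to 2C, with 26 to 64 fragments each, lay at 0.215 to 0.473, and all 15 later ones lay above them, at 6.56 to 40.0. The step from 2C to 4C was 134-fold (counting interval 96.6 to 192) in IV-D. POLR2A (ENSSSCG00000028278, chr12:52779833-52806210), the largest subunit with the repeated tail that is phosphorylated in elongation, had a smaller step, with 0.917 in OC, 3.56 in 1C, 0.821 in 2C, 6.06 in 4C, 4.52 in 8C, 3.97 in MO, 2.41 in IT and 1.38 in TE in IV-D, 0.754 to 8.70 in NT-D and 1.49 to 6.39 in NT-LW. POLR2A overlaps another annotated gene on its strand, so part of its reads may belong there.

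POLR2C, a subunit of the assembly platform, was already high in the oocyte and lowest in TE. It had 78.6 in OC, 82.7 in 1C, 50.3 in 2C, 49.97 in 4C, 57.8 in 8C, 40.9 in MO, 30.6 in IT and 12.6 in TE in IV-D, and 70.2 to 140.0 in the 1C and 2C clones. POLR2D, which forms the stalk that leaves and rejoins the enzyme, was the subunit with the most transcripts of the polymerase II subunits in 8C embryos of all groups. Its FPKM was 8.34 in OC, 9.50 in 1C, 19.2 in 2C, 72.3 in 4C, 318 in 8C, 193 in MO, 127 in IT and 88.1 in TE in IV-D, and it reached 444 in NT-D 8C and 363 in NT-LW 8C. The step from 4C to 8C was 14.1-fold (counting interval 13.3 to 15.0) in NT-D, where the 4C value of 31.4 lay below 72.3 in IV-D and 79.7 in NT-LW. POLR2G, the partner of POLR2D in the stalk, was also low early, with 0.426 in OC, 2.63 in 1C, 4.87 in 2C, 14.3 in 4C, 84.8 in 8C, 92.4 in MO, 139 in IT and 91.0 in TE in IV-D. All 12 libraries from 8C on held 58.4 to 179.7 and all 11 before held 0.426 to 19.5, so the groups of libraries did not overlap. The step from 4C to 8C in IV-D was 5.93-fold (counting interval 5.20 to 6.80). POLR2I, a zinc-ribbon subunit for start-site choice and proofreading, had the same shape, 0.720 to 12.4 before 8C and 32.2 to 76.7 from 8C on. POLR2M, a protein that binds the polymerase and holds it off Mediator, had the smallest ratio of highest to lowest of these 11 subunits, between 6.78 and 24.8 over all 23 libraries.

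Subunits shared by all 3 polymerases differed as much. POLR2E was abundant from the oocyte on, with 135 in OC, 155 in 1C, 52.3 in 2C, 173 in 4C, 307 in 8C, 258 in MO, 267 in IT and 132 in TE in IV-D and 94.7 to 276 in the clones, and IV-D 2C had the lowest value of all 23 libraries. POLR2F was 1.87 to 13.2 up to 2C, 25.5 to 39.9 in 4C and 48.2 to 133 from 8C on, without overlap between the 3 spans. POLR2H was 3.45 to 13.8 up to 2C and 15.9 to 122 from 8C on, with its peak at 8C in all groups, 107 in IV-D, 122 in NT-D and 112 in NT-LW. The step from 4C to 8C of IV-D was 8.38-fold (counting interval 7.66 to 9.19). POLR2K was highest at 8C as well, 65.2, 123.3 and 147, and fell back to 33.8, 9.72 and 43.3 in morulae, 12.7-fold (counting interval 11.8 to 13.7) lower in NT-D. The transcript length behind the POLR2K values, 4025 bases, is longer than the RefSeq locus of 2894 bases, so its level per kilobase depends on a gene model not seen here.

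Over the 10 core and shared polymerase II subunits of the table, without POLR2M, the SD of log2(FPKM + 1) among subunits within a library was 2.37 in IV-D OC, 2.22 in 1C, 2.02 in 2C, 1.38 in 4C and 1.67 in 8C. The lowest subunit of the IV-D oocyte was POLR2B at 0.233 and the highest POLR2E at 135, and at 4C they were POLR2A at 6.06 and POLR2E at 173. Over all genes of the table the SD moved less, from 2.34 in OC to 2.17 in 4C and 2.35 in 8C. The same SD was 2.84 in OC, 2.21 in 4C and 2.62 in 8C among TFIID and SAGA TAFs, and 2.29, 2.16 and 2.27 among Mediator subunits, so narrowing at 4C was also seen outside the polymerase. As a class, 6 of 7 polymerase II subunits and 2 of the 4 shared ones were higher in IV-D 4C than in 2C (34.4% of the table) and none lower. Median-ratio scaling left 4 and 1. In NT-D 2 and 1 of them were higher at this step (17.3% of the table), and in NT-LW 4 and 3 (16.5%), with POLR2C and POLR2E lower in NT-LW. From 4C to 8C 3, 4 and 3 of the 7 polymerase II subunits and 2, 3 and 3 of the shared ones were higher in IV-D, NT-D and NT-LW (35.0%, 31.4% and 28.1% of the table), and none was lower. The 3 of 7 in IV-D at this step lay near that share. The class median of polymerase II at that step in IV-D, 0.21, changes sign under median-ratio scaling, to -0.18.

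**Figure D3:**
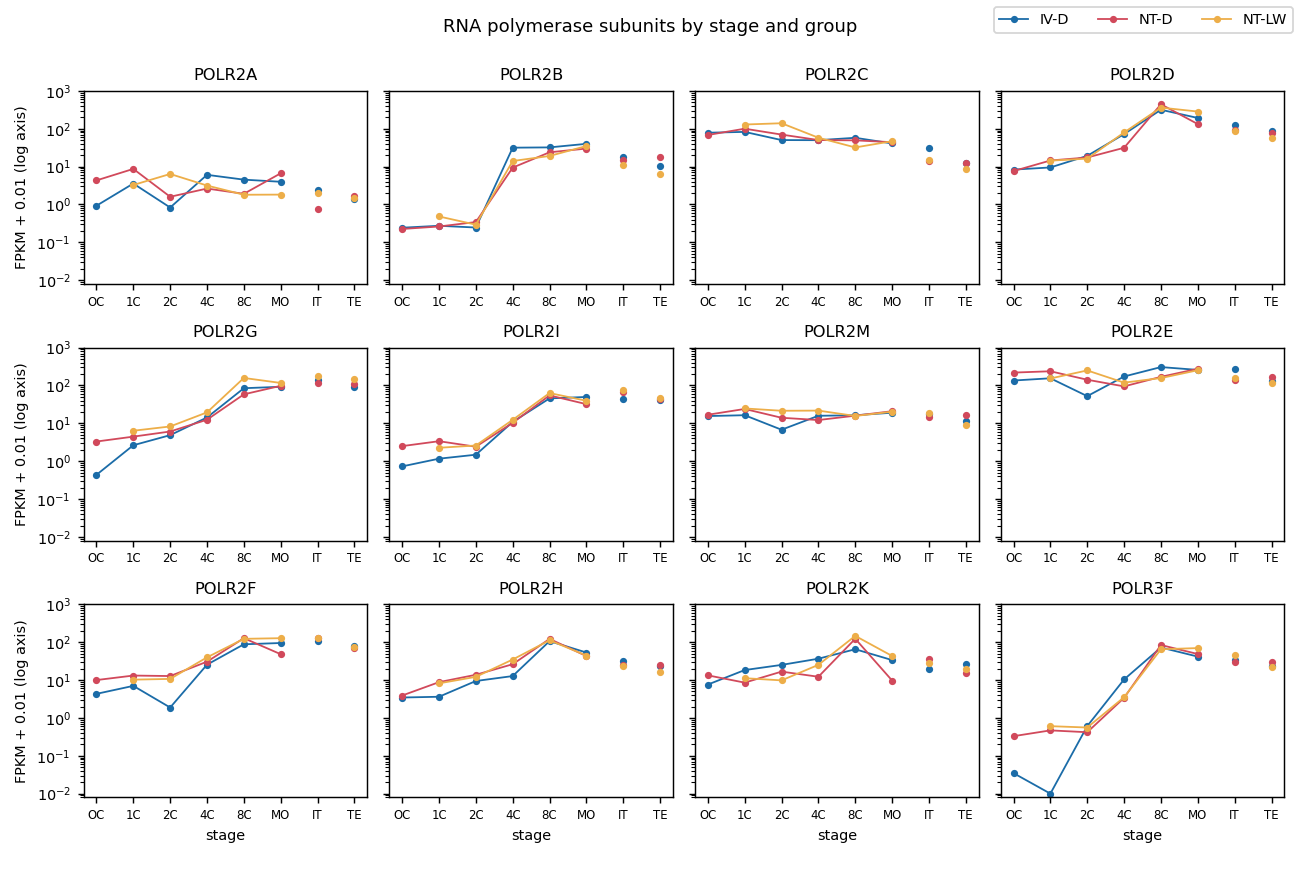
FPKM + 0.01 on a log axis by stage for 11 polymerase II and shared subunits and POLR3F, with lines through OC to MO and separate points for IT and TE, in IV-D, NT-D and NT-LW (1 library for each point). POLR2B lies under 0.5 up to 2C and above 6 from 4C on in every group, while POLR2A, POLR2C, POLR2E and POLR2M were above 0.7 in every library.

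In polymerase III 1 subunit was near 0 before the 4-cell stage. POLR3F (ENSSSCG00000007095, chr17:26719339-26737635), which helps the enzyme to open promoters, had 0.0248 in OC, 0 in 1C, 0.599 in 2C, 10.4 in 4C, 72.5 in 8C, 41.7 in MO, 33.5 in IT and 23.2 in TE in IV-D, from 1, 0 and 26 fragments in the first 3 libraries. In NT-D it had 0.320 in OC, 0.459 in 1C, 0.409 in 2C, 3.38 in 4C, 84.4 in 8C, 48.7 in MO, 30.5 in IT and 30.9 in TE, and in NT-LW 0.596 in 1C, 0.549 in 2C, 3.51 in 4C, 65.2 in 8C, 70.0 in MO, 45.5 in IT and 21.9 in TE. No library up to 2C reached 1, and all from 8C on lay between 21.9 and 84.4. The step from 4C to 8C was 6.98-fold (counting interval 6.21 to 7.87) in IV-D, 24.97-fold (counting interval 20.4 to 30.9) in NT-D and 18.6-fold (counting interval 15.5 to 22.4) in NT-LW. GTF3A, the factor that starts 5S ribosomal RNA genes, was likewise at 0.0876 to 0.962 up to 2C and 3.47 to 8.66 from 8C on. With POLR2B these were the 3 members under 1 in all 8 libraries up to 2C and at 1 or above in all 12 from 8C on, a pattern held by 4.71% of the table. GTF3C6, a subunit of TFIIIC, went from 3.77 to 16.5 up to 4C to 20.9 to 84.7, whereas GTF3C1 and GTF3C2 of the same complex were at 0.364 to 6.10 and 1.68 to 14.4 up to 2C and 0.182 to 0.834 and 1.29 to 6.49 from 8C on, which overlap. POLR3K, a small subunit, was 44.0 to 55.6 in oocytes and 1C embryos and 12.0 to 27.2 from 8C on. POLR3A, the largest subunit, ranged from 0.529 to 5.53, higher at 4C than at 2C in IV-D and lower in NT-LW, and POLR3C ranged from 0.563 to 6.57, higher at 8C than at 4C in IV-D and NT-D.

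Polymerase I subunits peaked at different stages. POLR1D, shared by polymerases I and III, was among the most abundant members, with 153 in OC, 165 in 1C, 154 in 2C, 556 in 4C, 321 in 8C, 201 in MO, 247 in IT and 287 in TE in IV-D, and peaked at 4C in IV-D and NT-LW (482) and at 8C in NT-D (633). POLR1D overlaps another gene on its strand in the annotation. POLR1E, a subunit for initiation, peaked at 4C in IV-D alone, with 29.5 in OC, 16.6 in 1C, 30.1 in 2C, 62.9 in 4C, 17.4 in 8C, 5.30 in MO, 4.33 in IT and 2.34 in TE in IV-D against 14.4 in OC, 18.9 in 1C, 18.7 in 2C, 18.9 in 4C, 19.5 in 8C, 9.41 in MO, 1.998 in IT and 1.01 in TE in NT-D and 27.6 in 1C, 22.8 in 2C, 18.3 in 4C, 15.3 in 8C, 9.35 in MO, 2.04 in IT and 1.05 in TE in NT-LW. Its step from 4C to 8C in IV-D was 3.63-fold (counting interval 3.37 to 3.90) lower. The factor SL1, which brings polymerase I to ribosomal DNA, showed both directions among its TAFs. TAF1A had 41.7 in OC, 96.0 in 1C, 33.1 in 2C, 3.95 in 4C, 1.65 in 8C, 1.39 in MO, 0.954 in IT and 1.74 in TE in IV-D, 17.7 to 96.0 in all libraries up to 2C and 0.954 to 4.15 in all later ones. It was 8.39-fold (counting interval 7.19 to 9.84) lower at 4C than at 2C in IV-D, 11.04-fold (counting interval 8.91 to 13.8) in NT-D and 8.08-fold (counting interval 6.67 to 9.86) in NT-LW. TAF1D moved the other way, from 2.68 to 7.88 up to 2C to 27.6 to 63.4 from 4C on, with no overlap. TAF1B peaked at 8C in IV-D and NT-D and fell 3.42-fold (counting interval 3.18 to 3.67) to the IV-D morula, where NT-LW held 22.7 against 7.14. TAF1A shares bases of its strand with a neighbouring gene.

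Of the TBP family the table held both relatives. TBPL2 (ENSSSCG00000005059, chr1:184745719-184772051) encodes the TBP form of oocytes, and TBPL1 (ENSSSCG00000022387, chr1:29899956-29936773) a TBP-like factor known from the testis. TBPL2 was 13.1 in OC, 8.22 in 1C, 11.3 in 2C, 11.09 in 4C, 0.0309 in 8C, 0.211 in MO, 0.491 in IT and 0.170 in TE in IV-D, 5.20 in OC, 4.99 in 1C, 15.8 in 2C, 15.6 in 4C, 0.625 in 8C, 0.907 in MO, 0.0599 in IT and 0.122 in TE in NT-D and 6.90 in 1C, 13.5 in 2C, 8.86 in 4C, 1.05 in 8C, 0.432 in MO, 0 in IT and 0 in TE in NT-LW. All 11 libraries up to 4C held 4.99 to 15.8 and all 12 from 8C on 0 to 1.05. The drop from 4C to 8C in IV-D, from 277 fragments to 1, has a counting interval of 63.9 to 14230 for the ratio. It was 24.9-fold (counting interval 15.7 to 41.9) lower in NT-D, and 19 fragments remained there. TBPL1 declined over more stages, with 121 in OC, 92.4 in 1C, 109.8 in 2C, 69.7 in 4C, 63.6 in 8C, 25.3 in MO, 16.7 in IT and 8.70 in TE in IV-D. Over all groups it was 92.4 to 153 up to 2C and 8.70 to 87.4 from 8C on, spans that do not overlap but lie close. The 3 genes with a symbol whose log2(FPKM + 1) over the 23 libraries followed TBPL2 most closely were SORCS3 (Pearson r 0.972), NCKAP5 (0.972) and AGBL1 (0.969), a description over libraries that share a sharp step between 4C and 8C.

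TFIIA also has a germ cell form. GTF2A1L (ENSSSCG00000033106, chr3:91991690-92083062), the germ cell form of its large subunit, had 138 in OC, 108 in 1C, 139 in 2C, 52.2 in 4C, 10.2 in 8C, 10.3 in MO, 3.20 in IT and 1.46 in TE in IV-D. In NT-D it was 112 in OC, 79.4 in 1C, 108 in 2C, 50.7 in 4C, 22.97 in 8C, 62.9 in MO, 5.04 in IT and 0.1003 in TE, and in NT-LW 109 in 1C, 98.3 in 2C, 57.6 in 4C, 11.2 in 8C, 0.710 in MO, 0.0970 in IT and 0.0886 in TE. Every library up to 4C lay between 50.7 and 139 and all but the NT-D morula from 8C on between 0.0886 and 22.97, so that morula overlapped the early span. From 4C to 8C it was 5.10-fold (counting interval 4.57 to 5.71) lower in IV-D and 5.14-fold (counting interval 4.59 to 5.77) in NT-LW, and from 8C to MO 2.74-fold (counting interval 2.53 to 2.97) higher in NT-D but 15.8-fold (counting interval 10.4 to 25.01) lower in NT-LW. In the same NT-D morula library BMP15, an oocyte growth factor, stood at 116 against 0.585 in IV-D and 5.90 in NT-LW, and KPNA7, an oocyte importin, at 48.4 against 1.01 and 2.06. All 8 oocyte markers had FPKM of at least 1 there, against 5 in IV-D MO and 7 in NT-LW MO, and their part in the GTF2A1L value was not tested. The somatic form GTF2A1 (ENSSSCG00000002411, chr7:103963863-104009318) lay between 1.28 and 9.01 over all libraries, and the small subunit GTF2A2 was abundant throughout, at 67.2 to 299. GTF2A1L made up 98.1% of the summed FPKM of both large subunits in the IV-D oocyte, 88.0% at 4C, 58.1% at 8C and 30.9% in TE, and 2.65% and 2.42% in TE of NT-D and NT-LW.

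Other paralog pairs gave other pictures. MED12L, against MED12 of the Mediator kinase module, held 93.7% of the pair in the IV-D oocyte, 89.4% at 4C, 19.5% at 8C and 4.01% in TE, but 54.9% and 64.1% at 8C in NT-D and NT-LW. MED12 was 0.109 to 1.01 up to 2C and 0.692 to 1.81 from 8C on, and MED12L 1.10 to 5.21 and 0 to 1.94, where the lower end rests on 0 to 5 fragments. TAF4B, the TAF4 form of the germ line, went the other way at the 4-cell stage, with 43.0%, 46.1% and 39.8% of its pair at 2C and 88.2%, 87.2% and 85.7% at 4C in IV-D, NT-D and NT-LW. Its FPKM was 3.32 in OC, 7.07 in 1C, 2.29 in 2C, 10.5 in 4C, 10.6 in 8C, 5.11 in MO, 2.82 in IT and 1.69 in TE in IV-D. TAF7L, the germ cell and fat cell form of TAF7, had 0.649 to 5.25 in 20 libraries outside IT and 2.79 and 1.86 in 2 IT libraries, but stood at 18.5 in NT-LW IT, 6.63-fold (counting interval 5.41 to 8.19) above IV-D, with TAF7 there at 41.3. MED12 and TAF7L lie on the X chromosome, and clones were male while IV-D was of mixed sex.

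**Figure D4:**
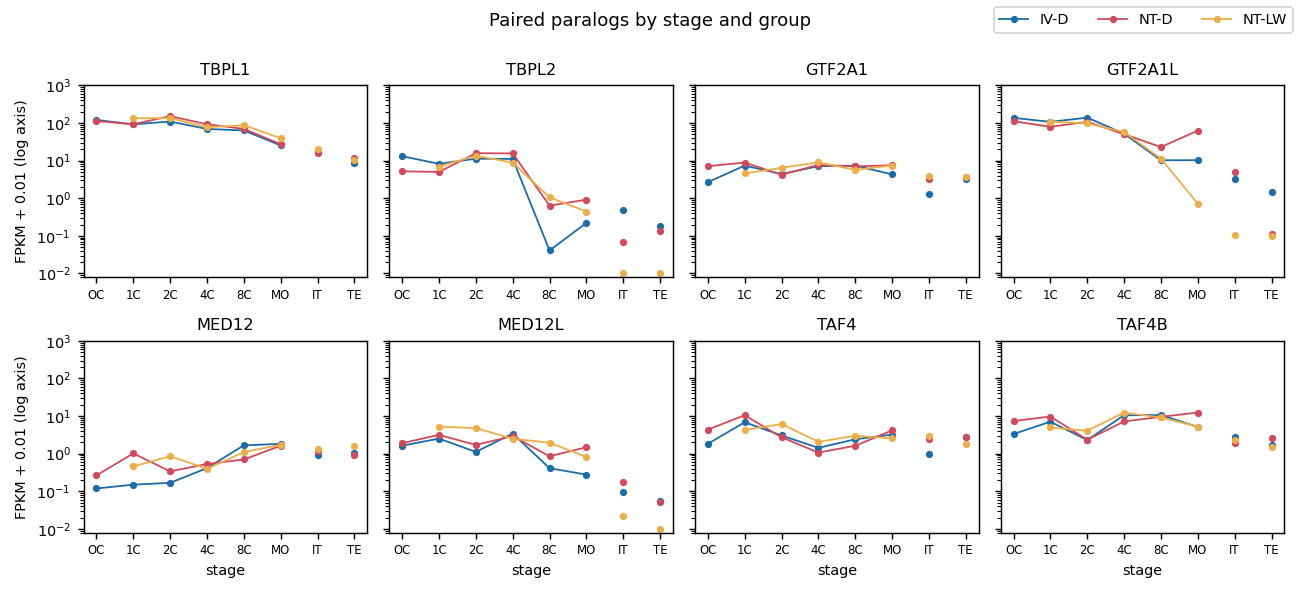
FPKM + 0.01 on a log axis by stage for 4 pairs of paralogs in IV-D, NT-D and NT-LW, with lines through OC to MO and separate points for IT and TE (1 library for each point). TBPL2 drops between 4C and 8C in every group while TBPL1 slopes down, GTF2A1L is lower from 8C on except in the NT-D morula at 62.9, and MED12L is lower in blastocyst parts than in any library up to 4C.

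The TAFs of TFIID and of the coactivator SAGA had more lower than higher members at the 4-cell stage in each group. Of the 12 tested of 13, 4 were lower and 3 higher than at 2C in IV-D (12.3% and 34.4% of the table), 5 and 1 in NT-D (8.36% and 17.3%), and 6 and 1 in NT-LW (19.9% and 16.5%, where the table too had more lower genes). The class median was negative under every scaling (-0.60 in IV-D as deposited, -1.39 by median ratios). For TAF9, TAF11, TAF12 and TAF13, small TAFs with a histone fold, the 4C value lay below those of 2C and 8C in each group, though not past the fold at every step. From 2C to 4C in IV-D the log2 difference was -0.39 for TAF11 and -0.60 for TAF13. TAF3 and TAF4B, which also carry a histone fold, were higher at 4C than at 2C in IV-D. TAF9 had 796 in OC, 744 in 1C, 795 in 2C, 268 in 4C, 389.9 in 8C, 278 in MO, 181 in IT and 179 in TE in IV-D, 930.2 in OC, 345 in 1C, 432 in 2C, 135 in 4C, 494 in 8C, 219 in MO, 186 in IT and 184 in TE in NT-D and 289.6 in 1C, 337 in 2C, 124 in 4C, 469.6 in 8C, 295 in MO, 177 in IT and 126 in TE in NT-LW. It lies with AK6 on the same strand over 4728 bases, and reads of both cannot be told apart. TAF12 had 106 in OC, 129.6 in 1C, 130.1 in 2C, 41.0 in 4C, 119 in 8C, 67.3 in MO, 64.9 in IT and 67.9 in TE in IV-D, 3.18-fold (counting interval 2.95 to 3.43) lower at 4C than at 2C. TAF13 went from 42.9 at 4C to 103 at 8C in IV-D, from 13.5 to 133 in NT-D and from 18.1 to 145 in NT-LW, and TAF11 from 34.6 to 120.5, 30.4 to 162 and 28.8 to 142. In each group 4C held the lowest value of TAF11, TAF12 and TAF13 of all stages.

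Larger TAFs differed from these. TAF2, which contacts the initiator element, had 67.5 in OC, 77.5 in 1C, 50.9 in 2C, 13.7 in 4C, 25.4 in 8C, 17.6 in MO, 11.02 in IT and 8.54 in TE in IV-D and did not regain its early level, 3.72-fold (counting interval 3.50 to 3.96) lower at 4C than at 2C. TAF8, its partner in assembly, was 3.84 to 20.5 up to 2C and 0.410 to 2.82 from 8C on. TAF7, which restrains TFIID until the polymerase leaves, was 73.4 in OC, 32.4 in 1C, 29.9 in 2C, 93.9 in 4C, 42.8 in 8C, 90.6 in MO, 82.0 in IT and 25.5 in TE in IV-D, 61.6 to 151 in clones up to 8C and 25.4 to 116 after. TAF3, a reader of promoter histone marks, peaked at 4C in IV-D with 9.74. TAF6L of SAGA had 0.0756 to 1.79. TAF15, an RNA-binding protein found with TFIID, was 0.472 to 2.61 up to 4C and 6.02 to 18.0 from 8C on, and rose 2.89-fold (counting interval 2.52 to 3.31) from 8C to MO in IV-D.

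Factors that join at the promoter after TFIID were split. TFIIH, which opens DNA and phosphorylates the polymerase tail, gained transcripts in most subunits from 4C to 8C. GTF2H5, its smallest subunit, had 10.3 in OC, 45.7 in 1C, 20.9 in 2C, 26.1 in 4C, 122.8 in 8C, 157 in MO, 109.7 in IT and 101 in TE in IV-D and reached 209 and 203 in 8C of NT-D and NT-LW, 4.70-fold (counting interval 4.13 to 5.38) above 4C in IV-D and 13.7-fold (counting interval 11.7 to 16.0) in NT-LW. GTF2H3 was 2.29 to 15.0 up to 4C and 22.1 to 91.5 from 8C on, with peaks at 8C of 61.8, 90.4 and 91.5. GTF2H1 was 2.07 to 16.5 and 17.5 to 38.2. For all 3 every late library lay above every library up to 4C, a pattern that 15.3% of the table showed. For GTF2H1 the gap was small, 16.5 in NT-LW 4C against 17.5 in NT-D MO, and median-ratio scaling removed it. The class was higher from 4C to 8C in 3 of 3 subunits in IV-D and 2 of 3 in each clone group (35.0%, 31.4% and 28.1% of the table in IV-D, NT-D and NT-LW), with class medians of 1.98, 3.51 and 3.07 that stay above 1.5 under both other scalings.

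GTF2F1, the large subunit of TFIIF, had 0.940 in OC, 1.07 in 1C, 0.321 in 2C, 18.7 in 4C, 6.94 in 8C, 7.73 in MO, 7.47 in IT and 2.56 in TE in IV-D, 58.2-fold (counting interval 41.0 to 85.5) higher at 4C than at 2C, while its partner GTF2F2 had 9.59 to 30.4 in all 23 libraries. In clones GTF2F1 stood at 7.35 and 6.04 at 4C. GTF2E2 of TFIIE was 49.8 in OC, 40.0 in 1C, 50.6 in 2C, 27.3 in 4C, 70.1 in 8C, 60.7 in MO, 55.8 in IT and 48.6 in TE in IV-D. GTF2I, a factor that binds initiators and E boxes, had 9.14 to 35.5 over all libraries. GTF2B (ENSSSCG00000006926, chr4:127522802-127559605), the single-chain TFIIB that bridges promoter and polymerase, had 452 in OC, 317 in 1C, 214 in 2C, 363 in 4C, 481 in 8C, 380.3 in MO, 234 in IT and 257 in TE in IV-D, 328 in OC, 158 in 1C, 206 in 2C, 41.0 in 4C, 425 in 8C, 304 in MO, 211 in IT and 230.0 in TE in NT-D and 233 in 1C, 162 in 2C, 77.9 in 4C, 374 in 8C, 397 in MO, 217 in IT and 187 in TE in NT-LW. Both clone groups had their lowest GTF2B value at 4C, where IV-D did not dip, and at 8C the 3 groups lay between 374 and 481.

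DRAP1 (ENSSSCG00000012965, chr2:6409623-6411935), a corepressor that binds TBP together with DR1, was higher from 8C on than before, a separation lost under both other scalings. In IV-D it had 1.64 in OC, 5.51 in 1C, 1.45 in 2C, 7.87 in 4C, 22.2 in 8C, 38.2 in MO, 86.5 in IT and 58.6 in TE. It had 18.1 in OC, 17.4 in 1C, 6.71 in 2C, 11.6 in 4C, 21.4 in 8C, 49.6 in MO, 67.8 in IT and 70.6 in TE in NT-D and 11.6 in 1C, 10.1 in 2C, 12.9 in 4C, 23.6 in 8C, 63.7 in MO, 73.3 in IT and 45.05 in TE in NT-LW. All 12 libraries from 8C on lay above all 11 before, and the lowest were 3 IV-D libraries, OC, 2C and 1C. In oocytes matured in vitro DRAP1 stood 11.08-fold (counting interval 8.05 to 15.6) above oocytes matured in vivo. In 1C NT-D it stood 3.15-fold (counting interval 2.53 to 3.94) above IV-D. The paper had already named DRAP1 as upregulated in oocytes matured in vitro, so the oocyte gap is no independent finding. Its partner DR1, outside the list of members, had 61.5 in OC, 165 in 1C, 58.5 in 2C, 6.40 in 4C, 6.10 in 8C, 5.95 in MO, 1.78 in IT and 5.36 in TE in IV-D, 126 in OC, 142 in 1C, 62.6 in 2C, 13.4 in 4C, 16.7 in 8C, 12.4 in MO, 4.98 in IT and 2.98 in TE in NT-D and 63.8 in 1C, 98.1 in 2C, 8.19 in 4C, 17.1 in 8C, 7.62 in MO, 5.53 in IT and 4.24 in TE in NT-LW. In IV-D DRAP1 was higher at 4C than at 2C, and in the clones it did not pass the fold at this step.

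Mediator subunits differed in direction at the 4-cell stage. MED10 (ENSSSCG00000017106, chr16:75516992-75524761), of the middle module, had 2.43 in OC, 2.39 in 1C, 4.25 in 2C, 185 in 4C, 152 in 8C, 116 in MO, 129 in IT and 65.9 in TE in IV-D, 6.04 in OC, 6.12 in 1C, 4.89 in 2C, 82.3 in 4C, 281 in 8C, 115 in MO, 88.0 in IT and 87.1 in TE in NT-D and 6.68 in 1C, 6.23 in 2C, 194 in 4C, 277 in 8C, 175 in MO, 125 in IT and 61.4 in TE in NT-LW. It was 43.6-fold (counting interval 35.6 to 54.0) higher at 4C than at 2C in IV-D, 16.8-fold (counting interval 13.5 to 21.2) in NT-D and 31.2-fold (counting interval 26.1 to 37.6) in NT-LW, and no library up to 2C overlapped a later one. MED8, which links the head to the rest, had 4.16 in OC, 2.92 in 1C, 2.59 in 2C, 98.04 in 4C, 200.5 in 8C, 142 in MO, 142 in IT and 118 in TE in IV-D, and was 37.8-fold (counting interval 30.9 to 46.9) higher at 4C than at 2C there, 19.6-fold (counting interval 14.3 to 27.4) in NT-D and 16.4-fold (counting interval 13.2 to 20.6) in NT-LW. MED19, a hook to the polymerase, went from 3.87 to 9.84 up to 2C to 10.3 to 35.8 from 8C on. MED26, which recruits elongation factors, went from 0.0265 to 0.167 to 0.378 to 1.55, the early values from 3 to 16 fragments.

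MED17, the scaffold of the head, and MED14, the backbone that joins the modules, went down. MED17 was 73.2 in OC, 192 in 1C, 68.7 in 2C, 21.2 in 4C, 11.05 in 8C, 7.02 in MO, 6.21 in IT and 4.37 in TE in IV-D, 144 in OC, 142 in 1C, 54.7 in 2C, 16.1 in 4C, 8.39 in 8C, 9.37 in MO, 3.47 in IT and 4.21 in TE in NT-D and 101 in 1C, 110.3 in 2C, 14.9 in 4C, 7.82 in 8C, 9.27 in MO, 4.06 in IT and 4.28 in TE in NT-LW, 7.39-fold (counting interval 6.87 to 7.96) lower at 4C than at 2C in NT-LW. MED14 was lower one stage later, with 28.9 in OC, 59.8 in 1C, 32.5 in 2C, 30.3 in 4C, 6.21 in 8C, 4.44 in MO, 2.34 in IT and 2.72 in TE in IV-D, and was 4.88-fold (counting interval 4.53 to 5.27) lower at 8C than at 4C in IV-D, 4.69-fold (counting interval 4.37 to 5.04) in NT-D and 5.51-fold (counting interval 5.10 to 5.97) in NT-LW. MED27 lay at 47.4 to 83.1 up to 4C and 8.14 to 35.7 from 8C on. For MED14, MED17, MED27 and TBPL2 all late libraries lay below all libraries up to 4C. These were 4 of the 79 members, a smaller share than the 13.4% of the table with this pattern. MED1, the contact of nuclear receptors, was higher at 4C than at 8C in all 3 groups, 15.0 against 6.67 in IV-D, and rose 3.48-fold (counting interval 3.14 to 3.86) from 8C to MO in NT-D. MED6 dropped after 8C in every group, from 56.1 to 82.2 at 8C to 15.1 to 23.9 in morulae, 5.46-fold (counting interval 5.16 to 5.78) lower in NT-D. MED7 was the most abundant Mediator member before 4C in most libraries, at 130.1 to 242 up to 2C and 54.6 to 80.5 in blastocyst parts, and it shares its strand with FAM71B. The Mediator core class had 6 of 17 higher and 2 lower from 2C to 4C in IV-D with a median of 0.38, shares near the 34.4% and 12.3% of the table, and the sign of that median changes under median-ratio scaling, to -0.43.

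Taking all libraries at once, 20 members had every library from 8C on above every library up to 2C (23.7% of the table), and 9 had every late library below (17.3%). With 4C counted among the early libraries 12 and 4 members did (15.3% and 13.4%). These spans were chosen after the values were seen. The 20 were POLR2B, POLR2D, POLR2F, POLR2G, POLR2H, POLR2I, POLR3F, TAF1D, TAF15, GTF2F1, GTF2H1, GTF2H3, GTF2H5, GTF3A, GTF3C6, MED8, MED10, MED19, MED26 and DRAP1, and the 9 were TBPL1, TBPL2, GTF2A1L, TAF1A, TAF2, TAF8, MED14, MED17 and MED27. Rescaling to an equal sum kept 15 of the 20 and all 9, without DRAP1, GTF2F1, GTF3C6, MED19 and POLR2H, and median-ratio scaling kept 19 and 9 and added 7 to the lower ones. The ETS motif stood in the windows of 5 of the 9 and 4 of the 20, against 12 of all 76, and the NRF1 motif in 0 of the 9 and 4 of the 20, against 10 of 76. Windows of the 9 and the 20 held a median of 12 and 17.5 CG. These are small numbers, given as a description.

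Cloned embryos had less of several of these transcripts than in vivo embryos at the 4-cell stage. In NT-D 2 of 76 tested members were higher and 15 lower than in IV-D (9.74% and 13.2% of the table), with a median log2 difference of -0.18 beside -0.02 for the table. In NT-LW 2 of 76 were higher and 11 lower (10.8% and 9.43%), with medians of -0.01 and 0.03. Both clone groups were compared with the same IV-D library. GTF2B was the member with the greatest gap in each, 41.0 in NT-D and 77.9 in NT-LW against 363 in IV-D, 8.85-fold (counting interval 8.26 to 9.50) and 4.66-fold (counting interval 4.44 to 4.89) lower. MED19 at 9.25 and MED8 at 28.2 in NT-D stood 4.36-fold (counting interval 3.85 to 4.95) and 3.48-fold (counting interval 3.20 to 3.79) below IV-D. POLR1E was at 18.9 and 18.3 against 62.9, 3.34-fold (counting interval 3.08 to 3.62) and 3.44-fold (counting interval 3.20 to 3.71) lower.

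POLR2B was at 9.42 in NT-D and 14.1 in NT-LW against 31.7 at 4C, log2 differences of -1.65 and -1.12. POLR3F was at 3.38 and 3.51 against 10.4, and GTF2F1 at 7.35 and 6.04 against 18.7, 3.09-fold (counting interval 2.79 to 3.43) lower in NT-LW. MED19 and MED8 passed the fold in NT-LW as well, at 18.9 and 43.6 against 40.3 and 98.04. TAF13 and MED4 were also lower than IV-D in both, at 13.5 and 18.1 against 42.9, and 62.1 and 58.0 against 129. Both comparisons share the IV-D 4C library, so a member lower in both is not shown by separate evidence. The share of the table lower in both was not computed. Higher than IV-D were MED28 (67.5 against 27.6) and TAF8 in NT-D, and POLR2H (34.9 against 12.8) and MED13 in NT-LW. Summed fibroblast markers were 31.5 in NT-D 4C and 30.7 in NT-LW 4C against 5.48 in IV-D 4C, and oocyte markers 1940 and 1906 against 1168. At 1C the fibroblast sum was 25.7 in IV-D, made without donor cells, 27.0 in NT-D and 16.0 in NT-LW, so it does not mark donor cells alone. The part of either marker set in the 4C differences of members was not tested.

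**Figure D5:**
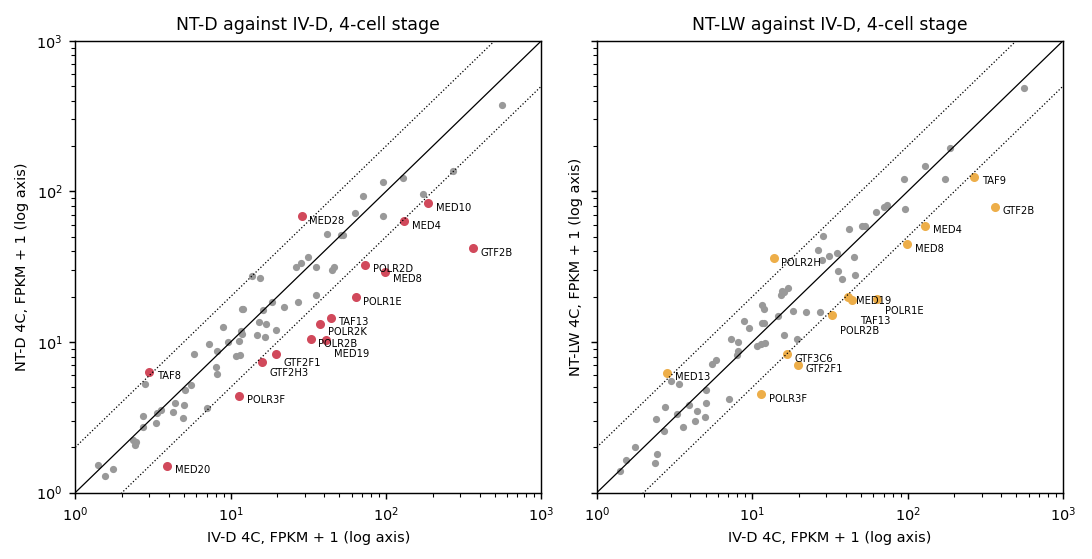
FPKM + 1 of each member at the 4-cell stage in NT-D (left) and NT-LW (right) against IV-D, on log axes, with the line of equality and dotted lines at a factor of 2. Named points pass the fold rule, 16 in NT-D and 13 in NT-LW, with 1 member not shown, and GTF2B lies farthest below the line in both.

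By the 8-cell stage few members differed. In NT-D 1 of 75 was higher than in IV-D and 2 were lower (10.8% and 17.4% of the table), and in NT-LW 2 of 77 and 5 (16.3% and 17.3%). The count depends on the scaling, with 0 higher and 7 lower in NT-D and 2 and 14 in NT-LW after rescaling to an equal sum, and 6 and 0 in NT-D by median ratios. GTF2A1L was the member higher in NT-D, 22.97 against 10.2, 2.25-fold (counting interval 1.99 to 2.54). POLR3A and TAF6L were lower in both clone groups, POLR3A at 1.78 and 1.93 against 4.86. In NT-LW POLR2K was 2.25-fold (counting interval 2.18 to 2.33) higher and TAF9B 3.02-fold (counting interval 2.76 to 3.30) lower than in IV-D. TAF9B lies on the X chromosome, as do MED12, MED14 and TAF7L. Clones were male and IV-D of mixed sex, and the part of sex in differences of these members was not tested. GTF2B, POLR2B and POLR3F, lower in clones at 4C, were within a factor of 2 of IV-D at 8C, at 374 to 481, 19.1 to 32.2 and 65.2 to 84.4 over the 3 groups.

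Before the 4-cell stage more members were higher than lower in clones, an order that median-ratio scaling reversed or evened at OC, 1C and 2C. Recipient oocytes matured in vitro had 17 of 73 tested members above oocytes matured in vivo and 1 below (13.3% and 1.51% of the table), a count that median-ratio scaling turned to 5 and 5. After DRAP1 came MED20, of the head module, at 7.59 against 0.980, and MED15, an activator contact, at 15.0 against 4.09, and the lower one was TBPL2, 5.20 against 13.1, 2.53-fold (counting interval 2.09 to 3.06). At 1C 12 of 74 members were higher and 8 lower in NT-D (18.5% and 3.44%), and 8 of 73 and 5 in NT-LW (20.8% and 4.12%). Rescaling to an equal sum gave 22 and 4 in NT-D and 20 and 5 in NT-LW, and median ratios 2 and 13 and 4 and 17, so the direction of the 1C count rests on the scaling. GTF2H5 at 10.5 and 11.6 against 45.7 and MED30 at 12.3 and 12.7 against 51.0 were lower in both clone groups, and so were TAF1A, at 27.6 and 21.2 against 96.0, and TAF9. Higher were GTF3C2 in NT-D, 14.3 against 4.23, and TAF7 and GTF3C6 in NT-LW, 151 against 32.4 and 11.7 against 3.77.

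At 2C the clone groups differed from IV-D to unlike extents, with 5 of 70 members higher and 1 lower in NT-D (6.48% and 1.90% of the table) and 25 of 73 and 3 in NT-LW (34.7% and 3.51%), near the table in each. Median ratios gave 3 and 5 in NT-D and 10 and 23 in NT-LW. POLR2E was 142 and 250 against 52.3, 2.71-fold (counting interval 2.53 to 2.92) and 4.78-fold (counting interval 4.47 to 5.11) higher. POLR2F was 12.8 in NT-D against 1.87, and MED15 15.9 in NT-LW against 2.72. Lower were GTF2H5 in NT-D, 6.53 against 20.9, and POLR2K and TAF9 in NT-LW, 9.81 against 25.2 and 337 against 795.

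The earliest steps of IV-D moved members up and then down. From OC to 1C 14 of 72 were higher and 4 lower (13.7% and 7.64% of the table), led by MED20, 0.980 to 11.9, and GTF2H5, 10.3 to 45.7, with TAF7 down from 73.4 to 32.4. From 1C to 2C 2 of 72 were higher and 21 lower (6.59% and 24.6%), with a median of -0.62 beside -0.41, and median ratios gave 9 and 11. MED20 returned to 0.893 and MED15 went from 16.0 to 2.72, while GTF3C6 rose from 3.77 to 11.9.

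After 8C the balance of higher and lower members depended on the scaling in clones. From 8C to MO 3 of 75 were higher and 4 lower in IV-D (12.3% and 13.6% of the table), 11 of 76 and 17 in NT-D (31.6% and 12.0%) and 5 of 76 and 7 in NT-LW (22.4% and 12.4%). Equal sums gave 1 and 7, 13 and 13, and 8 and 5, and median ratios 1 and 24 in NT-D and 3 and 12 in NT-LW. MED6 and TBPL1 were lower in all 3 groups (2.51% of the table) and none was higher in all (6.23%). POLR1G, a polymerase I subunit, rose 5.26-fold (counting interval 4.16 to 6.71) in NT-LW, from 2.57 to 13.5, to below 20.7 in IV-D. From MO to IT 1 of 76 members was higher and 7 lower (7.70% and 7.59%), the higher one DRAP1, and POLR2B fell from 40.0 to 17.9. From MO to TE 0 of 74 were higher and 23 lower (12.0% and 24.6%), with a median of -0.67 beside -0.38, and median ratios gave 10 changed members. Lower in TE were 4 of 7 polymerase II, 3 of 5 polymerase I and 3 of 6 polymerase III subunits, with POLR1G from 20.7 to 4.18, and 0 of 3 TFIIH subunits.

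In later clones few members differed from IV-D. In morulae 5 of 77 were higher and 3 lower in NT-D (18.7% and 3.88% of the table) and 2 of 75 and 1 in NT-LW (11.6% and 4.07%), with 2 and 6 in NT-D and 1 and 1 in NT-LW by median ratios. MED28 was at 68.9 in NT-D against 25.1, TAF7 at 41.1 against 90.6 and POLR2K at 9.72 against 33.8. MED28 was 71.8 to 131 up to 2C in NT-D, and the summed oocyte markers of the NT-D morula were 238.5 against 9.25 in IV-D, whose part in these values was not tested. In IT 0 of 75 were higher and 4 lower in NT-D (9.47% and 15.4%) and 3 of 75 and 4 in NT-LW (8.70% and 13.7%). POLR1G was lower in both, 4.15 and 5.97 against 16.9, POLR2C in NT-D, 14.0 against 30.6, and MED28 in NT-LW, 8.99 against 23.8. In TE 0 of 72 were higher and 1 lower in NT-D (3.13% and 4.23%), the lower one GTF2A1L with 3 fragments against 42, and 1 of 73 and 6 in NT-LW (6.26% and 10.2%), with GTF2E2 at 21.1 against 48.6 and POLR1D at 130.2 against 287.

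Of 64 further genes that work beside these factors 49 were in the table. Counts of these 49 rest on FPKM as deposited and were not repeated under the other scalings. From 2C to 4C in IV-D 30 of 48 tested were higher and 3 lower with a median log2 difference of 1.66, beside 34.4% and 12.3% of the table, and in NT-D 16 and 6 (17.3% and 8.36%) and in NT-LW 13 and 7 (16.5% and 19.9%). SUPT4H1, a subunit of the elongation factor DSIF, was at 0 to 0.451 in all libraries up to 2C and at 31.8 to 144 in 4C, while its partner SUPT5H was at 3.33 to 24.4 and 9.46 to 13.3. TFAM and TFB2M, which start transcription of mitochondrial DNA, were at 0.0283 to 0.366 and 0.0339 to 0.316 up to 2C and 68.9 to 146 and 2.96 to 7.22 in 4C. CCNC, the cyclin of the Mediator kinase, was at 1.85 to 4.59 and 24.2 to 57.3, and its kinase CDK8 at 2.09 to 9.41 and 2.86 to 3.75. In TFIIH the kinase CDK7 was at 15.2 to 26.9 up to 2C and 160.1 to 259.9 in 8C, with CCNH at 2.57 to 7.62 and 23.4 to 25.9, and the assembly factor of that kinase, MNAT1, went from 28.3 to 59.4 to 4.77 to 9.27 in blastocyst parts. At 4C 0 of 48 were higher and 12 lower than IV-D in NT-D (9.74% and 13.2% of the table), and 0 of 47 and 5 in NT-LW (10.8% and 9.43%), the last near the table.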

How the data were processed

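The authors amplified polyadenylated RNA of pooled embryos (SMART-Seq v4), aligned reads with HISAT2 2.0.4 to Sscrofa11.1, counted with HTSeq 0.9.1 and deposited FPKM values for 23 libraries, which are 1 for each condition. Whether libraries kept strand was not given in the sources used here. By its name the table holds the genes they called different. The study's methods give thresholds on adjusted p-values and folds for tests with DEGSeq and on adjusted p-values for DESeq, and which of them made this table is not stated, so shares refer to this table.

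Fragment numbers were recovered from the steps of FPKM (8603 of 8603 genes, largest relative deviation from a whole number 1.13e-09). Genes were compared on log2(FPKM + 1), with the pseudocount 1, a threshold of 1 and a minimum FPKM of 1, and exact 95% counting intervals of ratios. No p-value was computed. Calls were tested on simulated data for IV-D 4C to 8C: of 200 genes changed 8-fold among 8603, 99.5% were called, and 0% of unchanged genes. The simulated data held counting error alone, around the same mean of a gene in every library, and the planted change lay far over the threshold. Shares near all and none follow from that setting and say nothing about spread between real libraries. These shares hold for that run alone. Each condition has 1 library, so how calls vary between replicate libraries was not tested. Members and lists were chosen with earlier results of these data known. Named were all TBP family, polymerase II and shared subunits and DRAP1, the 4 largest changes each way at 2C to 4C and 4C to 8C of IV-D and between clones and IV-D at 4C and 8C, and the 2 largest elsewhere, with FPKM of at least 10 in one library, and 3 genes nearest to TBPL2. Others were named after their values were seen. Settings varied were the pseudocount (0.1), the minimum (FPKM of 5, or none), rescaling to an equal sum, median-ratio scaling, and intervals in place of folds. Donor cells and added replicates were not analysed here, and values of 1 member and the sequence of 1 promoter are not reported here. The work ran in Python 3.11.15 with pandas 2.3.3, numpy 2.4.6, matplotlib 3.10.9 and scipy 1.17.1, and samtools 1.23.1 read the genome.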

Additional observations from a re-analysis of the deposited data

Results flagged for a closer look

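Members that passed the fold in opposite directions in 2 groups at the same step were POLR2E, POLR3A and TAF7. POLR2E, a subunit of all polymerases, differed from 2C to 4C by 1.705 on the log2 scale in IV-D and by -1.066 in NT-LW. POLR3A, the largest subunit of polymerase III, differed at that step by 1.234 in IV-D and -1.044 in NT-LW. TAF7 differed from 8C to MO by 1.066 in IV-D and -1.028 in NT-D. Each rests on 1 library for each condition, and the difference between groups was not tested.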

How the results depend on the processing

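No paired analysis was possible because each condition has 1 library, and no replicate could be left out. Of the member counts, 140 stayed within 1.5 times the main value and 28 did not. Of the log2 differences of named members 164 moved by less than their counting error and 133 by more. None changed sign, which was fixed beforehand, since every named member had passed the fold rule and these settings shift values by less. With a pseudocount of 0.1 the number of members past the fold against IV-D became 13 at 2C, 9 at 8C, 13 at IT and 5 at TE in NT-D, and 12 at 8C, 6 at MO and 14 at IT in NT-LW. With a minimum FPKM of 5 it became 5 for IV-D MO to IT, 1 at 8C and 0 at TE in NT-D, and 4 at 8C, 4 at IT and 4 at TE in NT-LW. Rescaling to an equal sum gave 11 at 2C, 7 at 8C and 8 at IT in NT-D, and 25 at 1C, 16 at 8C, 5 at MO and 13 at IT in NT-LW. Median-ratio scaling gave 2 for IV-D MO to IT, 10 for MO to TE, 10 at OC, 6 at 8C and 2 at IT in NT-D, and 21 at 1C, 3 at 8C and 4 at TE in NT-LW. It raised the members with all late libraries below all up to 2C from 9 to 16, and without the NT-D morula 20 lay above and 10 below. These last alternatives were chosen after seeing the data. It also shifted the median of all genes for IV-D 2C to 4C from 0.46 to -0.24, and an equal sum to 0.73. No called member changed sign under either scaling, but none could have. A call needs a larger gap than the scaling factors of the compared libraries have. The cause of these moves was not tested. The 12 values of at most 3 fragments belong to TBPL2, MED12L, GTF2A1L, POLR3F and MED26.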
